A study of Rattus norvegicus with 3 samples.

Results

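Homeobox genes encode transcription factors that hold a homeodomain, a fold of helices that binds short AT-rich DNA sites. The members described here are all genes of the authors' table whose symbols begin with Dlx, Msx, Pitx, Lhx, Pax, Irx, Meis, Pbx, Barx, Alx, Prrx, Tgif, Cux or Satb and a number, with the numbered sine oculis names (as in Six2), or with Nkx or Hox in the numbered forms, without antisense names. The rule reads names only and uses no measured value. It found 45 genes among the 16516 of the table. RefSeq (assembly GRCr8) lists 116 protein-coding genes whose symbols fit, of which these 45 are part. The other genes, including all 40 Hox genes, are not in the authors' table under these symbols, so they could not be analysed here. Some Pax proteins carry only part of a homeodomain or a paired domain beside it, so the set is one of names and not of a shared protein fold throughout.

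RNA was sequenced from enamel organs of Wistar Hannover rats, an outbred laboratory strain, in 3 dissected populations. These were cells of the cervical loop (the growing end of the incisor, where the dental epithelium is renewed), ameloblasts that secrete enamel matrix, and ameloblasts that mature the enamel. Per the labels, 5 rats gave tissue, 1 cervical loop sample was dropped for low RNA integrity, and 25000000 reads were made for each library. No age, sex, treatment or genetic change is given. The populations were cut out by dissection and no sort of cells is described, so each may hold several cell types.

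Each stage is given as a single least-squares mean per gene, so no standard deviation or sample count can stand beside a level. The spread between libraries enters only through the p-values of the authors' deposited table, which were adjusted here over all 16516 genes by the Benjamini-Hochberg method into a false discovery rate (FDR). A gene passed a pair of stages where its FDR was below 0.05, and its direction is that of the stage means. The unit of the means is not stated, so levels are compared between stages within a gene and not between genes. Sums over marker genes are the exception, and the genes with the highest means weigh most in them. Means up to 0.1 count as the floor, and no fold is given against them. The p-values carry the spread on the scale of the authors' model, so a fold of means and its FDR are different measures of a change. In RNA from whole tissue pieces, fewer cells of a type and less RNA per cell cannot be told apart.

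Several of these families are known from tooth development. Loss of MSX1 or PAX9 leaves teeth missing. DLX3 is mutated in tricho-dento-osseous syndrome, in which enamel is thin, and mice without MSX2 make defective enamel. MSX1, BARX1, PAX9, LHX6, LHX8, ALX and PRRX proteins are best known from the mesenchyme beneath the epithelium. MEIS, PBX, IRX and TGIF proteins share a longer homeodomain (the TALE class), and MEIS and PBX proteins bind DNA together with other homeodomain proteins. CUX and SATB proteins pair a homeodomain with CUT domains, and SATB proteins organise chromatin loops.

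Most of the homeobox genes were at their highest in the cervical loop. The highest of the 3 stage means was the cervical loop mean for 25 of the 45 members, the secretory mean for 13 and the maturation mean for 7. Over all genes of the table, the cervical loop mean was the highest for 44.4%, the secretory mean for 22.3% and the maturation mean for 33.4%. From cervical loop to secretory cells, 7 members rose, 19 fell and 19 did not pass, where 16.5% of all genes rose and 25.2% fell. From secretory to maturation cells, 7 rose, 14 fell and 24 did not pass, where 21.8% of all genes rose and 21.1% fell. Between cervical loop and maturation cells, 7 were higher in maturation, 23 were lower and 15 did not pass, where 24.1% of all genes were higher and 33.7% lower.

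The shares of members that fell were therefore 42.2%, 31.1% and 51.1% in the 3 pairs, each above that of all genes. The share that rose was 15.6% each time. It was near that of all genes in the first pair (16.5%) and below it in the others (21.8% and 24.1%). The median log2 ratio over the members was -0.45, -0.24 and -0.65 in the same order, against -0.14, 0.00 and -0.12 over all genes. These are descriptions of the chosen genes, and no test of the set was made. The 3 pairs share their stage means, so their counts are not independent of each other. Of the 45 members, 10 passed in all 3 pairs, 22 in 2 pairs, 3 in 1 pair and 10 in none, where 13.5% of all genes passed in all 3 and 27.9% in none.

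**Figure D1:**
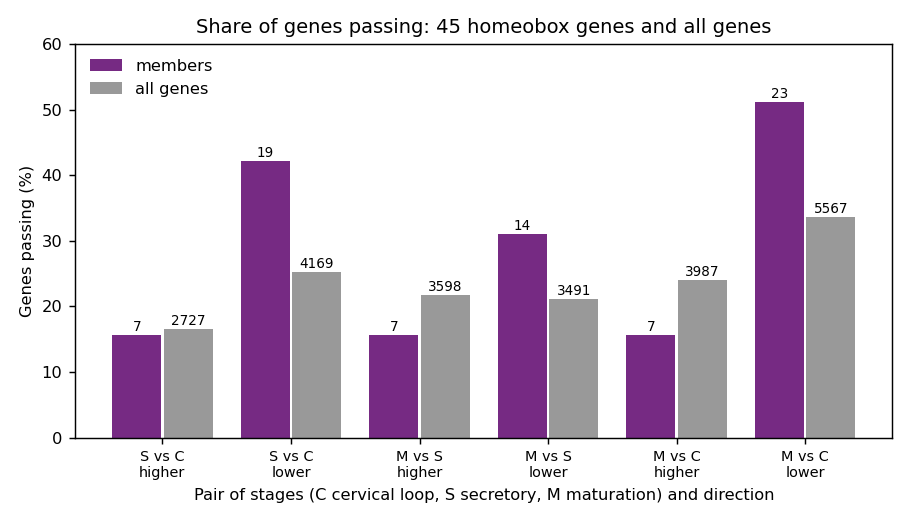
Share of genes that passed (FDR below 0.05) in each pair of stages and direction, for the 45 homeobox genes (purple) and all 16516 genes (grey), with the number of genes above each bar and the percentage on the vertical axis, which starts at 0. The purple bars stand above the grey ones for the genes that fell in each pair, at 42.2%, 31.1% and 51.1%.

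A gene was called high or low in a stage where it passed against both other stages in the same direction. By this rule 17 members were high in the cervical loop (18.6% of all genes were) and 3 were low there (9.37% of all genes). In the secretory stage 5 were high (7.99% of all genes) and 4 low (6.2% of all genes). In maturation 4 were high (14.6% of all genes) and 9 low (13.7% of all genes). The share of members high in the cervical loop, 37.8%, was above that of all genes, and the share high in maturation, 8.89%, was below it.

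**Figure D2:**
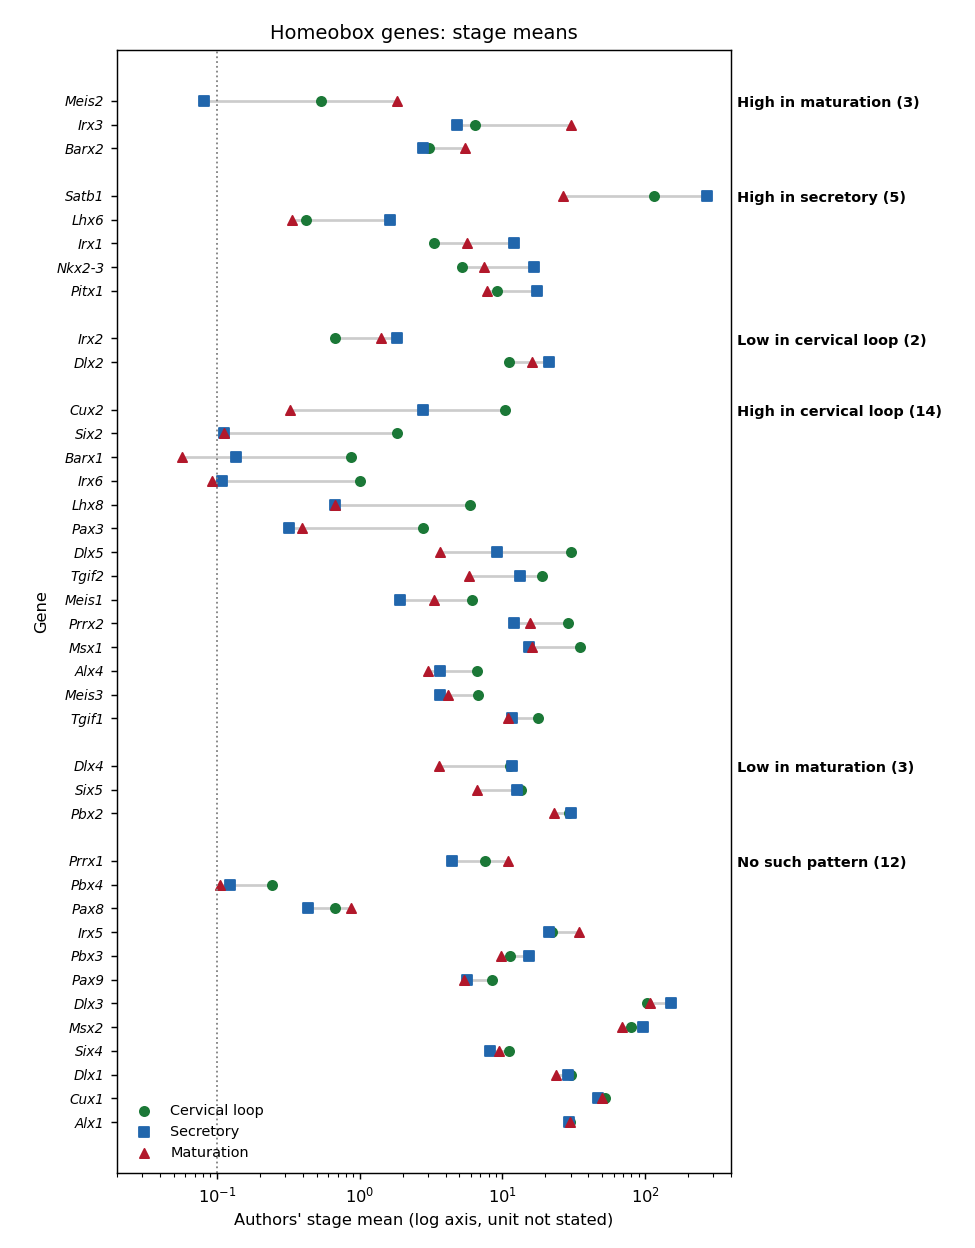
Stage means of 39 of the homeobox genes on a log axis (unit not stated), with cervical loop as green circles, secretory as blue squares and maturation as red triangles, and a dotted line at a mean of 0.1. Genes are grouped by the pattern they passed and each is shown once, under the first pattern listed that it meets, so Satb1 stands under high in secretory although it was low in maturation as well.

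The start regions of 4 genes that lead these patterns are printed here, so that the genes can be placed and their sequence inspected. They are the member with the largest ratio to the nearer of the other stages, among members with a single entry in the RefSeq promoter table, for high in the cervical loop (Six2), high in secretory cells (Lhx6), high in maturation (Irx3) and low in maturation (Cux2). Each runs 5′ to 3′ from 250 bases before to 50 bases after the annotated start, in build GRCr8, with every CG pair in capitals. Six2 lies at chr6:14727808-14728107 (plus strand), Lhx6 at chr3:39853374-39853673 (minus strand), Irx3 at chr19:31384868-31385167 (plus strand) and Cux2 at chr12:40179032-40179331 (plus strand).
Six2: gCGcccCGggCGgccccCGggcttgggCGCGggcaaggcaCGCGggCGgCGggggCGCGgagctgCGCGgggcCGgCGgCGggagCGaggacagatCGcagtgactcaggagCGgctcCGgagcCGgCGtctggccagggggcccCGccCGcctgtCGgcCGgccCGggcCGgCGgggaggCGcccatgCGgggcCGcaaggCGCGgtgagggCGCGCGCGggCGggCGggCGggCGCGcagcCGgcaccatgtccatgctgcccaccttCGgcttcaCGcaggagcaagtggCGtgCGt
Lhx6: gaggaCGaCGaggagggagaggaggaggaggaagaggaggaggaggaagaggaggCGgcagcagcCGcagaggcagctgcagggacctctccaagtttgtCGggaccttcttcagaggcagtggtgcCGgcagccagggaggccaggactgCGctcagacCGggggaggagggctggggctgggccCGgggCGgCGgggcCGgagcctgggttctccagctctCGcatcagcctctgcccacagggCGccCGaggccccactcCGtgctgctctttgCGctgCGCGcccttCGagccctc
Irx3: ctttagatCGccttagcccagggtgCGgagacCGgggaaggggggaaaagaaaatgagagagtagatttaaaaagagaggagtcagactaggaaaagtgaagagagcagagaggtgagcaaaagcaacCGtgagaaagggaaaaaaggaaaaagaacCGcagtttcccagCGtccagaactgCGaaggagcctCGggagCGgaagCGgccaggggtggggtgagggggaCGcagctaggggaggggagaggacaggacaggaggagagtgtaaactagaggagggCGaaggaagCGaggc
Cux2: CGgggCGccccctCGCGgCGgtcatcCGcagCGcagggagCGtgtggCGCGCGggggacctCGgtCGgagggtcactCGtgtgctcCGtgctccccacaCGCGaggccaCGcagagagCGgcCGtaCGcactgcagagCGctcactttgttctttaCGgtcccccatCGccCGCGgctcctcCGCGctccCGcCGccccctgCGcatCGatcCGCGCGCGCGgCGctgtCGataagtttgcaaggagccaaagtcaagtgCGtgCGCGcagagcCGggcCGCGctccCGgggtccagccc

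These 4 sequences hold 49, 20, 13 and 46 CG pairs in the order printed. The Cux2 and Six2 regions are dense in CG pairs, at 73.0% and 82.0% G and C, and the Irx3 region is less so, at 55.7%. Promoters were listed for 26 of the 45 members, as 29 entries, with a median of 20 CG pairs. The median was 19 over the promoters of the table's genes and 7 over all 33469 promoters. The core site of many homeodomain proteins, TAATTA (its own reverse complement), occurred in 0 of the 26 members' promoters, against 5.36% of all promoters and 2.56% of the table's genes. The site of bicoid-type proteins, TAATCC on either strand, occurred in 1 of 26 (3.85%), that of Meis3, against 7.17% of all promoters and 5.67% of the table's genes. The motifs share TAAT and were searched separately. A window without these letters says nothing of binding elsewhere.

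Satb1 fell from secretory to maturation cells. It had means of 114 in the cervical loop, 272 in secretory cells and 26.4 in maturation. It stood highest in secretory cells, 2.38-fold above the cervical loop (FDR of 0.00579), and fell 10.3-fold from there to maturation (FDR of 0.000269). It was also lower in maturation than in the cervical loop, by 4.33-fold (FDR of 0.000561).

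Of the CUX genes, Cux2 fell and Cux1 did not pass. Cux1, which encodes a widely expressed CUT repressor, had means of 52.6, 47.0 and 49.8 and passed in no pair. Cux2 stepped down at each stage, with means of 10.4, 2.77 and 0.325. Its fall was 3.77-fold into the secretory stage (FDR of 0.00104) and 8.5-fold into maturation (FDR of 0.000223), or 2.84-fold for the second step with 1 added to both means.

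Among the DLX genes, Dlx5 had the largest fold between stages, 8.32-fold lower in maturation than in the cervical loop. DLX proteins pattern the jaws and act in epithelium and mesenchyme of teeth. Dlx5 means were 30.3, 9.17 and 3.64, a fall at each step of 3.31-fold (FDR of 0.0032) and 2.52-fold (FDR of 0.0082). Dlx4 stood at 11.2 in cervical loop and 11.7 in secretory cells (FDR of 0.762), and fell 3.26-fold to 3.6 in maturation (FDR of 0.000505). Dlx2 went the other way at the start, from 11.1 to 21.2 (1.91-fold higher, FDR of 0.00672), and stood at 16.1 in maturation, still above the cervical loop (FDR of 0.0321). Dlx1 (30.2, 28.8 and 23.6) passed in no pair.

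Dlx3, the gene of the enamel syndrome, also passed in no pair. Its means were 103, 150.5 and 108, with FDR of 0.065 for the difference of 1.46-fold between the first stages and FDR of 0.106 for that between the later ones. A difference that misses the threshold is not shown to be absent. The secretory mean was the highest in Dlx3 as in Dlx2 and Msx2.

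Of the MSX genes, Msx1 was high in the cervical loop and Msx2 passed in 1 pair. Msx1, the one best known from mesenchyme, fell from 35.2 in the cervical loop to 15.4 in secretory cells (2.28-fold, FDR of 0.00222) and stood at 16.1 in maturation. Msx2 had means of 79.4, 96.1 and 68.2. It passed only from secretory to maturation cells, with a fall of 1.41-fold (FDR of 0.0465), close to the threshold.

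Pitx1, known for hindlimb and lower jaw identity, was highest in the secretory stage, with means of 9.16, 17.3 and 7.81. It rose 1.89-fold (FDR of 0.0307) and then fell 2.22-fold (FDR of 0.0147).

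The Iroquois genes lie in clusters, and their highest means fell in different stages. Irx3 had the largest rise into maturation among the members above the floor, with means of 6.42, 4.81 and 30.0 (6.24-fold from secretory cells, FDR of 0.00102). Its neighbour Irx5, with means of 22.3, 21.2 and 34.3, did not pass (FDR of 0.0923). Irx6, the next gene along, stood at 1.01 in the cervical loop and at 0.108 and 0.0924 later, and passed downward against both (FDR of 0.00714 and FDR of 0.00355). In the other cluster Irx1 was high in secretory cells (3.3, 12.01 and 5.65), 3.64-fold above the cervical loop (FDR of 0.0061). Irx2, at 0.668, 1.83 and 1.41, was low in the cervical loop, 2.74-fold below secretory cells (FDR of 0.0132, or 1.7-fold with 1 added to both means).

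Members that are direct neighbours, with no protein-coding gene between them in RefSeq, formed 6 pairs. Among them were Irx2 with Irx1, Irx6 with Irx5, Irx5 with Irx3, Dlx3 with Dlx4, and Dlx1 with Dlx2. Both genes passed in the same direction in 1 of these pairs, Irx2 with Irx1, and there in the first pair of stages only. In Dlx3 with Dlx4 and Dlx1 with Dlx2, 1 gene passed in some pair of stages and the other in none. Differences between neighbours were not tested. For 17 of the 45 members another RefSeq gene overlaps the gene body, among them Satb1 and Irx5, and whether reads were counted by strand is not given in the sources used here.

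**Figure D3:**
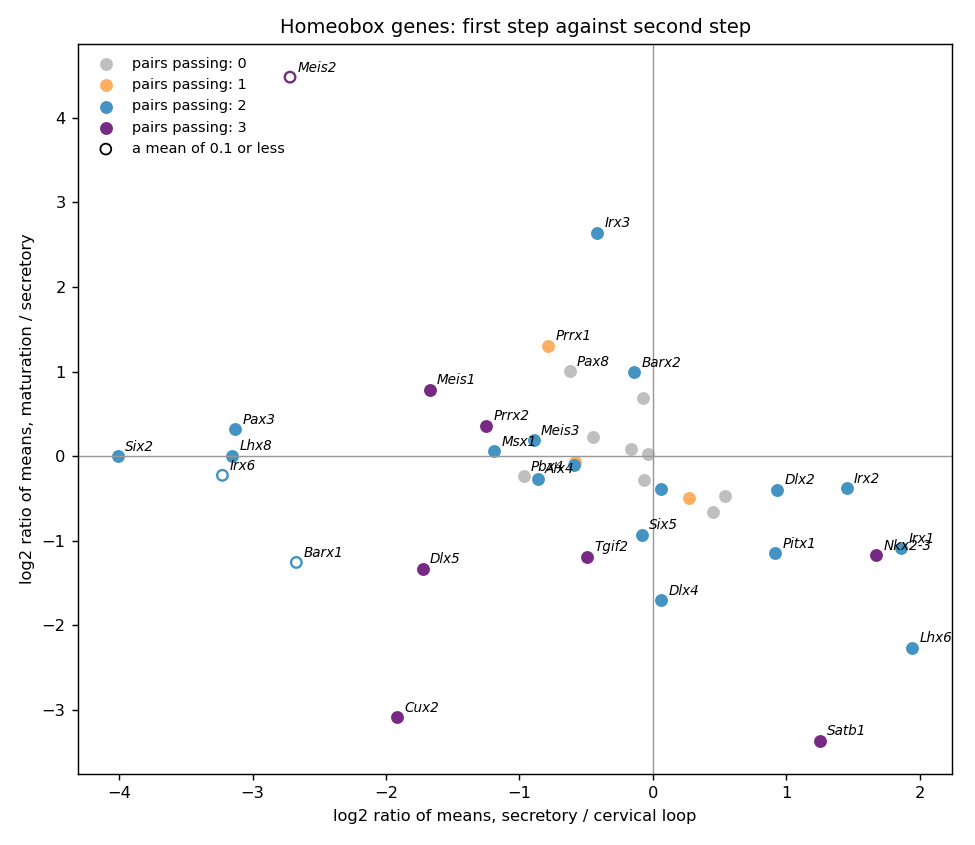
Log2 ratio of stage means for 39 of the homeobox genes from cervical loop to secretory (horizontal) and from secretory to maturation (vertical), coloured by the number of pairs of stages passed, with open symbols where a mean is 0.1 or less. Both axes use the secretory mean, so their values are tied, and Cux2 and Dlx5 sit at the lower left with a fall in both steps.

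Of the TALE cofactors, the MEIS genes were all lower in secretory cells than in the cervical loop. Meis1 had means of 6.13, 1.92 and 3.31, with a fall of 3.19-fold (FDR of 0.000336) and a rise of 1.72-fold into maturation (FDR of 0.00032). Meis3 fell from 6.78 to 3.65 (1.86-fold, FDR of 0.00362) and stood at 4.15 in maturation. Meis2 stood at 0.535 in the cervical loop, at the floor in secretory cells (0.0812) and at 1.82 in maturation. It was 3.39-fold higher in maturation than in the cervical loop (FDR of 0.0102), or 1.83-fold with 1 added to both means.

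Pbx2, whose protein partners with MEIS proteins, had means of 29.2, 30.4 and 23.1 and was 1.32-fold lower in maturation than in secretory cells (FDR of 0.0131). Pbx3 (11.3, 15.4 and 9.74) passed in no pair. The TGIF genes, repressors that act on SMAD and retinoid signalling, were both highest in the cervical loop. Tgif1 means were 17.7, 11.7 and 10.9, and its fall came at the first step (1.51-fold, FDR of 0.00857). Tgif2 means were 18.8, 13.4 and 5.86, with falls of 1.41-fold (FDR of 0.0308) and 2.28-fold (FDR of 0.00102).

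Of the 17 members high in the cervical loop, 8 are best known from dental or facial mesenchyme, among them Alx4, Barx1, Dlx5, Lhx8, Msx1, Prrx2 and Six2. A list of 15 such genes was set down from general knowledge, and 14 were measured. These 14 are all among the 45 members. Of the 45 members, 15.6% rose and 42.2% fell from cervical loop to secretory cells, with a median log2 ratio of -0.45. From secretory to maturation cells 15.6% of the 45 rose and 31.1% fell (median of -0.24). In maturation 15.6% of the 45 were higher and 51.1% lower than in the cervical loop (median of -0.65). From cervical loop to secretory cells 1 of the 14 rose, 8 fell and 5 did not pass, with a median log2 ratio of -0.82, where 25.2% of all genes fell with a median of -0.14. From secretory to maturation cells 2 rose, 2 fell and 10 did not pass, with a median of 0.00, where 21.1% of all genes fell and the median was also 0.00. Between cervical loop and maturation 0 were higher, 9 were lower and 5 did not pass, with a median of -0.82, where 33.7% of all genes were lower with a median of -0.12. The only one that rose at the first step was Lhx6, a LIM homeobox gene, with means of 0.422, 1.63 and 0.337 (3.85-fold, FDR of 0.0275, or 1.85-fold with 1 added to both means). It fell again into maturation, 4.82-fold (FDR of 0.00732, or 1.96-fold with 1 added to both means).

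Lhx8, which acts with Lhx6 in the tooth mesenchyme, was high in the cervical loop. Its means were 5.95, 0.669 and 0.671, and it was 8.9-fold lower in secretory than in cervical loop cells (FDR of 0.00884, or 4.17-fold with 1 added to both means). Prrx2 means were 28.8, 12.1 and 15.5, with a fall of 2.38-fold (FDR of 0.000979). Its relative Prrx1 (7.57, 4.4 and 10.9) passed only for its rise of 2.47-fold into maturation (FDR of 0.0156). Of the ALX genes, needed for the frontonasal skeleton, Alx4 (6.65, 3.65 and 3.03) was high in the cervical loop. Alx1 had means of 29.8, 29.0 and 29.5, the flattest course of the 45 members, with 1.03-fold between its highest and lowest mean. Pax9 (8.5, 5.66 and 5.4) passed only between cervical loop and maturation (1.57-fold lower, FDR of 0.0297).

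Several genes had low means and were found mainly in the cervical loop. Six2, a progenitor gene of kidney and craniofacial mesenchyme, stood at 1.82, 0.113 and 0.113 (16.1-fold lower in secretory cells, FDR of 0.0114, or 2.53-fold with 1 added to both means). Pax3, a gene of neural crest and muscle progenitors, stood at 2.78, 0.318 and 0.396 (8.76-fold lower, FDR of 0.0247, or 2.87-fold with 1 added to both means). Barx1, Pax8 and Pbx4 had a mean of at least 1 in no stage. Of these Barx1, named here after its values were seen, stood at 0.867, 0.136 and 0.0568 and passed downward against the cervical loop in both stages (FDR of 0.0149 and FDR of 0.00361).

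Of the other sine oculis genes, Six5 was low in maturation. Six5, which lies in the myotonic dystrophy region in humans, had means of 13.5, 12.7 and 6.67, a fall of 1.91-fold into maturation (FDR of 0.00103). Six4 (11.1, 8.17 and 9.53) passed in no pair. Nkx2-3, known from gut and spleen, passed in all 3 pairs and peaked in secretory cells, with means of 5.23, 16.7 and 7.41 (3.19-fold up, FDR of 0.000979, then 2.25-fold down, FDR of 0.0021). Barx2 (3.04, 2.76 and 5.49) was high in maturation, 1.99-fold above secretory cells (FDR of 0.0172).

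A list of 7 members best known from dental epithelium (among them Pitx1, Dlx2, Dlx3, Dlx4, Msx2 and Irx1) was counted in the same way. At the first step 3 rose, 1 fell and 3 did not pass, with a median log2 ratio of 0.54, where 16.5% of all genes rose with a median of -0.14. At the second step 1 rose, 4 fell and 2 did not pass, with a median of -0.49, where 21.1% of all genes fell with a median of 0.00. Between cervical loop and maturation 2 were higher, 1 was lower and 4 did not pass, with a median of 0.07 against -0.12 over all genes. Of all genes 24.1% were higher and 33.7% lower.

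Markers of other cells were measured beside these changes. Over all genes 16.5% rose and 25.2% fell at the first step, and 21.8% rose and 21.1% fell at the second. In maturation 24.1% of all genes were higher and 33.7% lower than in the cervical loop. All 9 measured epithelial markers were above the floor in each stage, and their summed means were 1051, 1559 and 3139 in cervical loop, secretory and maturation samples. The keratin gene Krt14, the highest of them in maturation, gave 295, 542 and 1691 of these sums. The single markers went both ways, with 3 that rose and 3 that fell at the first step, 4 that rose and 1 that fell at the second, and 4 higher and 3 lower in maturation than in the cervical loop. The 13 mesenchyme markers were also above the floor in each stage, with sums of 11240, 11390 and 15510, or 2.57%, 1.86% and 3.2% of all summed means. The collagen gene Col1a1, the highest of them, gave 5618, 5218 and 6385 of these sums and passed in no pair. Of these 13, 1 rose, 5 fell and 7 did not pass at the first step, and 5 rose, 1 fell and 7 did not pass at the second. In maturation 4 were higher and 2 lower than in the cervical loop, and 7 did not pass, with a median log2 ratio of 0.33. Sums of 9 odontoblast and bone markers were 493, 248 and 339, with Dspp and Sost at the floor in maturation, and 0 of 9 passed at the first step. Sums of 8 nerve and Schwann cell markers were 202, 136 and 87.7, with none at the floor. The highest of them, Ncam1, gave 145.4, 73.25 and 42.7 of these sums. Of the 8, 2 rose and 4 fell at the first step, and 3 rose and 2 fell at the second. In maturation 3 were higher and 3 lower than in the cervical loop, so the falling sums do not describe the list as a whole. The parts that these mixtures play in the courses of Msx1, Prrx2, Alx4, Lhx8 and the other mesenchymal members were not tested.

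Markers of myeloid and endothelial cells were higher in maturation than in secretory samples. Of 9 myeloid markers 8 were higher in maturation (sums of 252, 215 and 714), and of 9 endothelial markers 5 were (sums of 191, 261 and 377). Over all genes 21.8% rose and 21.1% fell between these samples. Sums of 10 muscle and pericyte markers were 141, 109 and 231, with Mb at the floor in the cervical loop, and 2 of the 10 rose and 1 fell from secretory to maturation samples. At that step Myh4 went from 1.96 to 52.8 and did not pass, while Acta2 fell from 54.5 to 21.9. Sums of 7 markers known from cells next to the ameloblast layer (stratum intermedium) were 700.2, 973 and 1005, and 1 of the 7 rose and 2 fell at that step. The myeloid and endothelial shifts accompany the rises of Irx3, Prrx1, Barx2 and Meis2 into maturation, and their part in them was not tested.

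Transcripts were listed for 10 of the members, with 2 each, in separate tables for each pair of stages. At the first step 1 of the 20 transcripts rose and 1 fell, where 7.63% of all 9949 transcripts rose and 8.41% fell. At the second step 7 rose and 6 fell, where 7.87% of all transcripts rose and 9.11% fell. Between cervical loop and maturation 1 was higher and 6 lower in maturation, where 10.7% of all transcripts were higher and 14.4% lower. The 2 transcripts of a gene share its locus and are not independent, and a transcript's secretory mean can differ between the tables.

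Both transcripts of Satb1 fell into maturation: Satb1-201 from 257 to 25.6 (FDR of 1.73e-06) and Satb1-202 from 15.5 to 1.05 (FDR of 4.56e-07). Both transcripts of Prrx1 rose, Prrx1-201 from 2.95 to 7.76 (2.63-fold, FDR of 0.0114) and Prrx1-202 from 1.37 to 3.24 (2.37-fold, FDR of 0.0399). Both transcripts of Irx5 rose as well, from 13.1 to 21.5 and from 7.97 to 13.1. For Irx5 the gene itself did not pass (FDR of 0.0923), while its transcripts had an FDR of 0.0426 and 0.0479.

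The authors' p-values for a change in isoform make-up passed for 0 of the 10 genes in any pair after Benjamini-Hochberg adjustment over genes. The smallest FDR was 0.181, between cervical loop and maturation. Without adjustment, p was below 0.05 for 0 genes at the first step, 1 at the second and 2 between cervical loop and maturation, of which Satb1 was 1. After adjustment, 1.19%, 1.8% and 2.79% of all genes listed there passed in the 3 pairs.

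**Figure D4:**
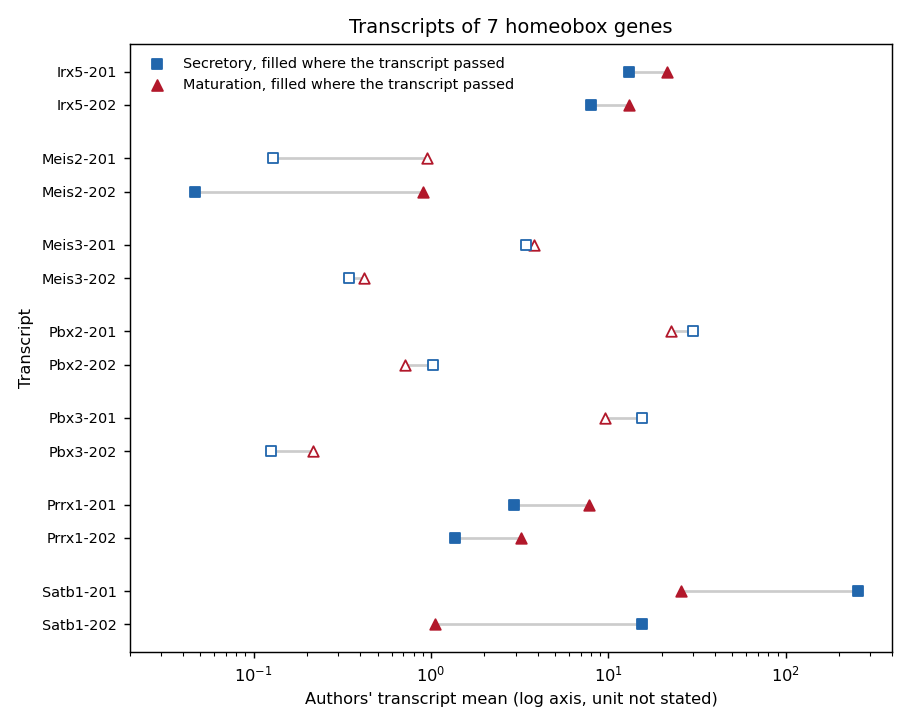
Means of 14 transcripts of 7 homeobox genes in secretory (blue squares) and maturation (red triangles) ameloblasts on a log axis (unit not stated), filled where the transcript passed between these stages. Both Satb1 transcripts lie lower in maturation and both Prrx1 transcripts higher.

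Proteins that work with homeodomain factors were followed in lists drawn from general knowledge, but with earlier results of these data known. LIM homeodomain proteins act through the adaptor LDB1 and its SSBP partners and are held back by LIM-only proteins. Of 10 such genes 1 rose, 2 fell and 7 did not pass at the first step (16.5% of all genes rose and 25.2% fell). At the second 3 rose, 2 fell and 5 did not pass (21.8% of all genes rose and 21.1% fell). Ldb1 declined from 49.3 and 43.9 to 29.0, 1.51-fold lower in maturation than in secretory cells. Lmo4, a LIM-only gene of epithelia, had means of 16.3, 15.9 and 39.6 (2.49-fold above secretory cells in maturation). Lmo1 fell 5.36-fold at the first step, from 3.85 to 0.718 (FDR of 0.00177). Ssbp3 rose from 25.6 to 47.5 (FDR of 0.00916).

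EYA phosphatases and DACH1 act with sine oculis and PAX proteins. At the first step 0 of the 5 measured rose and 3 fell (16.5% and 25.2% of all genes). At the second 2 rose and 0 fell (21.8% and 21.1% of all genes). Eya1 fell from 1.92 to 0.272 (FDR of 0.0117) and Dach1 rose from 5.08 in secretory cells to 18.6 in maturation (3.66-fold). The corepressors that homeodomain proteins recruit showed a fall in 5 and a rise in 1 of 13 genes at the first step. Over all genes 25.2% fell and 16.5% rose there. In maturation 9 of 13 were lower than in the cervical loop and 1 was higher (33.7% and 24.1% of all genes). Tle3, a Groucho-type corepressor, peaked in secretory cells with means of 48.4, 91.7 and 53.8, while Tle4 declined to 17.0 in maturation from 39.0 and 31.1. Hdac4 fell 2.27-fold at the first step (FDR of 0.000974).

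Genes reported in the field as lying downstream of DLX3, MSX2 or other homeodomain proteins in dental epithelium gave a background for the stages. At the first step 10 of the 19 measured rose, 2 fell and 7 did not pass, where 16.5% of all genes rose and 25.2% fell. At the second, 7 rose, 8 fell and 4 did not pass, where 21.8% of all genes rose and 21.1% fell. Ambn (ameloblastin, an enamel matrix protein) was 46.7-fold higher in secretory than in cervical loop cells and 11.6-fold lower in maturation than in secretory cells. Shh, the Sonic hedgehog ligand, fell from 39.0 in secretory cells to 0.144 in maturation (FDR of 0.000591). The transporter gene Slc34a2 rose across the same step from 4.26 to 248 (58.3-fold), and Slc26a1 rose 5.32-fold. At that step Dlx3 did not pass, Msx2 fell 1.41-fold and Satb1 fell 10.3-fold. No relation between these genes and the homeobox genes was tested.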

How the data were processed

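RNA was measured by sequencing in 3 stages, each deposited as 1 mean per gene. Per the submitters' processing notes, STAR 2.5.3a, Partek and build rn6 were used. Per the labels' protocols, reads were single-ended at 75 bases, 25000000 per library, from RNA with an integrity number of at least 7. The annotation, gene filter, normalisation and model, and the reads behind each gene, remain not given in the sources used here. Counting intervals could therefore not be computed. Per the file headers, the authors deposited least-squares means, treated here as scores since no unit is stated, with p-values, false discovery rates and ratios of the means for each pair of stages.

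From these were computed ratios of means and Benjamini-Hochberg adjusted p-values over all genes (Python 3.11.15, pandas 2.3.3, numpy 2.4.6, scipy 1.17.1), equal to the deposited rates within rounding. The adjustment was run on simulated data of 16516 genes, of which 200 were given a strong change. It recovered 200 of the 200, with 13 false calls. Changes so strong were bound to be recovered, and far more genes passed in the real pairs, so only the arithmetic was checked. If the tests were made on a log scale, the sign of a mean difference need not be that of the test. Signs were therefore checked by whether the t values implied by the p-values of the 3 pairs add up (at 7 error degrees of freedom, which of 4 to 11 gave the smallest misfit). The check took the standard errors of the 3 pairs as equal, although 1 cervical loop sample was dropped. The signs of the means fitted best for 42 of 45 members, and for the other 3, Irx5 and Pax3 among them, another sign of a difference that did not pass fitted better. The stage lists held the same means within 0.43%. All 45 members matched a RefSeq gene. Alternatives were a stricter threshold, a fold minimum, another adjustment, a minimum mean, pseudocounts and scalings. Gene lists were 5 of partners and targets, 2 of member roles and 8 of cell markers. The design foresaw a comparison of proteins, which was not run. Some members are counted and not reported by name here, and they are left out of the plots of single genes.

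Members with a highest mean of at least 1 could be named, with tests where they passed. In other lists, the 2 smallest p in each direction and pair could be named, or any gene of a list of up to 14. Barx1, Pax8 and Pbx4 were named outside this rule, after their values were seen. The members and lists were chosen with earlier results of these data known. The labels number libraries by rat, so stages may share rats, and whether the authors' model used this is not stated.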

Additional observations from a re-analysis of the deposited data

How the results depend on the processing

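Counts of members moved by over 1.5 times under a stricter threshold, a 2-fold minimum and another adjustment. At an FDR below 0.01, 4 members rose and 10 fell from cervical loop to secretory cells (10.2% and 14.3% of all genes). From secretory to maturation cells 4 rose (12.5% of all genes). In maturation 1 was higher than in the cervical loop (16.4% of all genes). At that threshold 9 members were high and 0 low in the cervical loop (10.6% and 4.96% of all genes). In the secretory stage 2 were high and 1 low (4.73% and 2.48%), and 1 was high in maturation (8.39%). At an unadjusted p below 0.05, 3 were low in the cervical loop (11.2% of all genes). With an added 2-fold minimum, 4 rose into maturation (9.35% of all genes) and 3 were higher there than in the cervical loop (10.6%). In the cervical loop 9 were high and 1 low (7.62% and 2.83% of all genes). In the secretory stage 2 were low (1.49%), and 2 were high in maturation (5.9%). Under the Benjamini-Yekutieli adjustment 1 rose and 7 fell at the first step (7.71% and 10.2% of all genes). At the second 4 rose and 8 fell (9.25% and 9.8%), and 1 was higher in maturation than in the cervical loop (13.4%). These 3 stricter settings keep fewer genes by construction, and the unadjusted p keeps more. The other 28 of 48 count alternatives lay within 1.5 times the reported count, among them all with the deposited rates or a highest mean of at least 1. All 75 ratios of named members that passed kept their direction under 2 pseudocounts, 2 scalings and the stage lists. With 1 added to both means, 9 members had a fold that moved over 1.5 times, each with a mean below 1 in some stage. Scaling by the sum without Ambn, Amelx and Enam shifted the median log2 ratio of all genes by -0.21 for secretory against cervical loop and by -0.14 for maturation against cervical loop. No replicate could be left out, because each stage is 1 mean. No paired analysis was possible because each stage is a single mean and no library values were analysed here.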

Other observations

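Homeobox genes outside the families above were followed in a separate list of 105 symbols, of which 44 were measured. At the first step 6 rose, 14 fell and 24 did not pass, with a median log2 ratio of -0.03 against -0.14 over all genes. Of all genes 16.5% rose and 25.2% fell there. At the second step 8 rose, 9 fell and 27 did not pass, near the 21.8% and 21.1% of all genes. Between cervical loop and maturation 12 were higher, 16 lower and 16 did not pass, near the 24.1% and 33.7% of all genes. Gsc, the goosecoid gene of craniofacial mesenchyme, was 25.4-fold lower in secretory than in cervical loop cells (means of 3.8 and 0.149, FDR of 0.00047). Pknox2, a relative of MEIS genes, fell from 3.99 to 1.04 and rose again to 2.79 in maturation (FDR of 0.000481 and FDR of 0.000504), lowest in secretory cells like Meis1. Mkx, a gene of tendon, fell at each step, from 9.27 to 3.81 and 2.46.

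Some ceramide synthases, membrane enzymes that carry a homeobox-like domain, changed by stage. Cers3, which makes the very long ceramides of the epidermal barrier, had means of 8.51, 8.67 and 0.605, a fall of 14.4-fold into maturation (FDR of 0.000203). Cers6 rose from 19.9 to 46.4 in secretory cells (2.33-fold, FDR of 0.000671) and stood at 39.0 in maturation. Cers2 stood at 33.9, 48.1 and 43.0 and was higher in both later stages than in the cervical loop.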
